A study of Mus musculus with 2 samples.

Results

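The genes described here are 36 genes of microglia and of the macrophages that live at the borders of the brain, read on 2 arrays of newborn mouse cortex. They were named from markers of these cells with earlier results of these arrays known, and each was found through the probe sets that the platform annotation assigns to it alone. All 36 had at least 1 such probe set, 58 probe sets in all, out of 18193 named genes and 34945 probe sets naming 1 gene. Border macrophage genes (Mrc1, Pf4, F13a1, Lyve1, Cd163, Stab1, Ms4a7 and Dab2) were kept apart as 8 members, which left 28 microglia and leukocyte members.

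The study compared a double knockout pool, labelled MRTF-A-/-;MRTF-BF/F;GFAP-Cre, with a control pool, labelled MRTFA-/-;MRTF-BFlox/Flox. The MRTF proteins help the transcription factor SRF switch on its target genes, both pools lack MRTF-A by label, and the pools differ by label in the Cre recombinase under a GFAP promoter, which is active in neural progenitors and astrocytes. Each pool combined cortical RNA of 3 mice at postnatal day 0, although 1 description of the double knockout pool gives day 1, and each was read on 1 array. There is therefore no replicate, no test was made, and every difference below compares 2 pools.

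Microglia are the resident macrophages of brain tissue. They descend from yolk sac progenitors and not from the neural lineage in which a GFAP promoter is active. They depend on the receptor CSF1R for survival, are specified by the transcription factors PU.1 and IRF8, and in the newborn cortex clear dying cells and supply the complement protein C1q, which marks synapses for removal. Border macrophages sit in the meninges, in the spaces around vessels and in the choroid plexus, and carry scavenger receptors such as CD206, CD163 and LYVE1.

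Signals of the genes the study targeted were lower in the double knockout pool. Mrtfb read 2481.8 in the double knockout pool and 3358.9 in the control pool on its brightest probe set, and Mrtfa read 262.4 in the double knockout pool and 601.6 in the control pool, although the labels give it as null in both. Srf read 471.1 in the double knockout pool and 582.3 in the control pool. No source used here says whether these probe sets lie in the deleted parts. All 10 cortical marker genes with a probe set, such as Emx1 and Bcl11b, were measured, and so were 9 of 10 striatal ones. A gene counts as measured here where a probe set reached the floor of 178.6, the median signal of the arrays, in at least 1 pool. The gene's difference comes from its brightest measured probe set as the log2 signal of the double knockout pool minus that of the control pool, after centring on the median and raising signals under the floor to it.

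Of the 36 members, 25 reached the floor in both pools, 4 in only 1 pool and 7 in neither. Among the 25, 17 were higher and 8 lower in the double knockout pool, with a median of 0.13 log2, where 54.3% of all genes at or above the floor in both pools were higher and their median was 0.02. Over the 29 measured members 20 were higher, beside 52.9% of all measured genes, but 4 of the 29 could differ in only 1 direction. A difference of at least 0.32 log2 was used to single out members. It was reached upwards by 7 of the 29 measured members, 2 of them only as a lower bound, and downwards by 2. The same threshold was passed upwards by 3.45% and downwards by 5.55% of all 11636 measured genes, a split that became 4.28% and 4.45% after quantile normalization. Among the 3775 genes in the members' middle signal range, 252.4 to 654.7, the shares were 5.27% and 8.61%. Because the members were chosen with this contrast known, nothing is read from the members' count against these shares. Fewer cells of a type and less RNA per cell cannot be told apart in such pooled tissue.

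**Figure D1:**
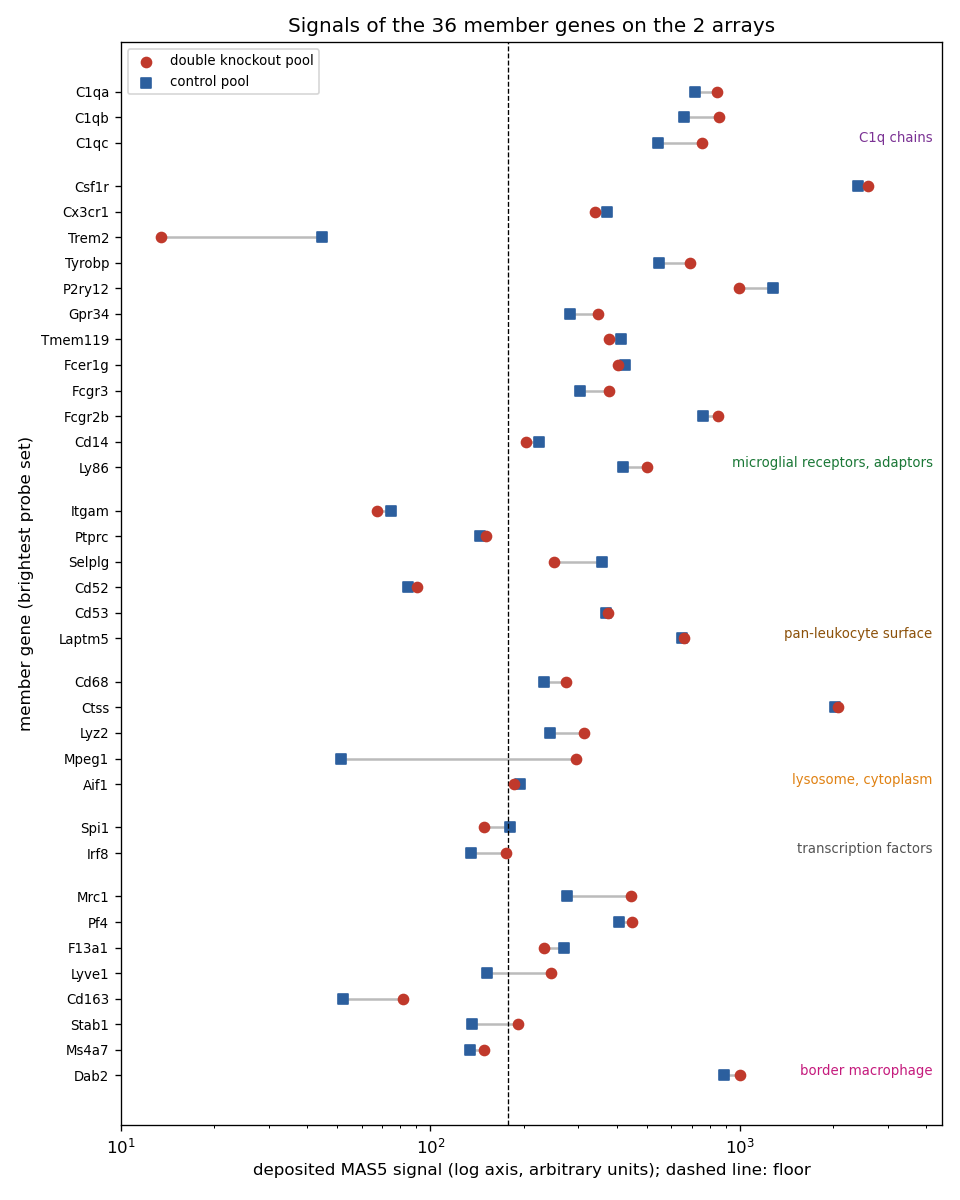
Deposited signal (log axis, arbitrary units) of each of the 36 members on its brightest probe set, with circles for the double knockout pool, squares for the control pool and a dashed line at the floor of 178.6. Mrc1 and the C1q chains lie to the right in the double knockout pool, P2ry12 and Selplg to the left, and the control square of Mpeg1 lies far under the floor.

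The stretches before the start sites of 5 members are shown because these members include the 2 with the highest differences, Mpeg1 (a bound) and Mrc1, the lower receptor P2ry12, and a complement pair that lies side by side in the genome. Each is the 250 bases before a RefSeq start site on mouse build GRCm38.p6, printed 5′ to 3′ along the gene's own strand. Capitals mark matches, on either strand, to GAGGAAG, a core of sites bound by PU.1 (written CTTCCTC where it lies on the other strand), or to the CArG box bound by SRF.
Mrc1 (chr2:14229164-14229413, plus strand): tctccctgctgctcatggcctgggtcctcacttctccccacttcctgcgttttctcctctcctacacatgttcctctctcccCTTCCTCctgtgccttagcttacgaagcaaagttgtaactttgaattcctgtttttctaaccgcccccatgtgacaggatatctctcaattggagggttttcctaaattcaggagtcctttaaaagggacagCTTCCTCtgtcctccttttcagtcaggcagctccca
C1qc (chr4:136892915-136893164, minus strand): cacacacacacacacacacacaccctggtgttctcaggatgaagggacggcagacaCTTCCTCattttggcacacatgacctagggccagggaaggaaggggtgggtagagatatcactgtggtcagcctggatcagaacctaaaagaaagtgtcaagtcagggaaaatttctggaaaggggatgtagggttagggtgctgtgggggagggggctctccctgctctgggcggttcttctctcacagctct
C1qb (chr4:136886201-136886450, minus strand): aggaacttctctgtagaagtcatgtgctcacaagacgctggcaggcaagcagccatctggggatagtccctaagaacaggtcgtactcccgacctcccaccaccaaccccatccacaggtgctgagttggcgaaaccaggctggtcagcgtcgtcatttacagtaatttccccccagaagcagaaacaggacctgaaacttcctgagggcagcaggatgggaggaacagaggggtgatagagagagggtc
Mpeg1 (chr19:12460520-12460769, plus strand): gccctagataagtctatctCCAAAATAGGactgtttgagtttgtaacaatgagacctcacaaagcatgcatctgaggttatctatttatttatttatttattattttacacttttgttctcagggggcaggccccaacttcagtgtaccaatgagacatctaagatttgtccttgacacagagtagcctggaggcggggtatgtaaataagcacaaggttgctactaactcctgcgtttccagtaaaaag
P2ry12 (chr3:59262986-59263235, minus strand): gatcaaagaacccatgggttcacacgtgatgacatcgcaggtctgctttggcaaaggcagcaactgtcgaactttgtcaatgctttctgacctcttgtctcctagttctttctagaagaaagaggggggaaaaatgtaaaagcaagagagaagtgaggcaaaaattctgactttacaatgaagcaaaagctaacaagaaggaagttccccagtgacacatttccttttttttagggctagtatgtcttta
Mrc1 held 2 matches to the PU.1 core and C1qc held 1, all on the other strand. C1qb and P2ry12 held no match to either motif, and Mpeg1 held a CArG box.

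RefSeq promoters were at hand for 26 of the 36 members. At least 1 match to the PU.1 core lay in the 250 bases of 8 of these (C1qc, F13a1, Fcgr3, Itgam, Laptm5, Mrc1, Pf4 and Trem2), or 30.8%, against 12% of all 27025 genes searched. Members with the core included Mrc1 and C1qc, which were higher in the double knockout pool, but also F13a1, which was lower, and Laptm5, which hardly differed. A CArG box lay in 1 of the 26, Mpeg1, and in 1.62% of all genes searched. No match to one motif overlapped a match to the other. A match describes the letters in the window and is not a bound site.

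C1q is a complement protein built from 3 kinds of chain, and the genes of its 3 chains, all measured in both pools, were higher in the double knockout pool. C1qa read 841.3 in the double knockout pool and 718.5 in the control pool, a difference of 0.22 log2. C1qb read 854.2 in the double knockout pool and 660.2 in the control pool on its brightest probe set, or 0.37 log2 and 1.29-fold. C1qc read 752.7 in the double knockout pool and 545.8 in the control pool, or 0.46 log2 and 1.38-fold. C1qc had the highest difference of the chains, and their summed signal was 2448.2 in the double knockout pool and 1924.5 in the control pool.

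The chain genes follow each other on mouse chromosome 4 in the order C1qb, C1qc, C1qa in the RefSeq gene table. C1qb has 3 probe sets, all higher in the double knockout pool, with a mean of 0.21 ± 0.14 (SD, 3 probe sets). Its 2 dimmer ones, whose names mark possible cross-hybridisation, read 0.12 and 0.14. C1qa and C1qc rest on 1 probe set each. Between probe sets of the same gene the pooled SD over 4858 genes was 0.18 log2, and C1qa lay only a little beyond it. That SD covers no difference between animals.

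Few genes that C1q works with could be measured, and these did not share the direction of the chains. The list of 10 complement partners had 3 measured genes, all lower in the double knockout pool, where 45.7% of all genes measured in both pools were. Cd93, a receptor once named for C1q, was at -0.25 on its brightest probe set and averaged -0.14 ± 0.16 (SD, 2 probe sets). Calr, the chaperone calreticulin, was at -0.10 and Serping1, the C1 inhibitor, at -0.06. C1ra, C1s1 and C2, which encode the proteases that act after C1q, stayed under the floor in both pools.

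Receptors of microglia went both ways. Of 12 members in this class, 11 were measured in both pools, 6 of them higher and 5 lower in the double knockout pool, with a median of 0.11 log2. Csf1r, the receptor for the survival factors CSF1 and IL-34, was the brightest of all the members and read 2598.2 in the double knockout pool and 2408.5 in the control pool. Its 3 probe sets differed by 0.11, 0.03 and -0.14, a mean of -0.0012 ± 0.13 (SD, 3 probe sets), so the gene had no direction across its probe sets.

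Adaptors and Fc receptors, which carry activating or inhibiting signals into the cell, were mostly higher in the double knockout pool. Tyrobp, the adaptor DAP12 used by TREM2, read 689.1 in the double knockout pool and 546.4 in the control pool, or 0.33 log2 and 1.26-fold. Fcgr3, an activating receptor for IgG, read 377.7 in the double knockout pool and 305.5 in the control pool, a difference of 0.30. Fcgr2b, the inhibiting IgG receptor, read 852.2 in the double knockout pool and 757.9 in the control pool, a difference of 0.17, on the 1 of its 5 probe sets that reached the floor. The shared gamma chain Fcer1g, which activating Fc receptors need at the surface, differed by -0.08, so the chain and its receptor Fcgr3 did not move together.

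Gpr34, a receptor for lysophosphatidylserine, read 348.1 in the double knockout pool and 283.1 in the control pool, a difference of 0.29, just short of the 0.32 threshold, as was that of Fcgr3. Ly86, the MD-1 partner of the receptor RP105, read 500.2 in the double knockout pool and 420.1 in the control pool, a difference of 0.25. Cd14, which presents lipopolysaccharide to Toll-like receptors, read 204.1 in the double knockout pool and 224.2 in the control pool, close to the floor, a difference of -0.14. Trem2, the lipid-sensing receptor upstream of Tyrobp, stayed under the floor on both of its probe sets, the brighter reading 13.5 in the double knockout pool and 44.6 in the control pool, so its direction cannot be given.

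The lowest difference among the receptors was that of P2ry12. P2ry12, the ADP receptor that steers microglial processes, read 995.0 in the double knockout pool and 1283.8 in the control pool, or -0.37 log2, a 1.29-fold lower signal. Of all 11636 measured genes, 462 had a lower difference. Tmem119, a surface protein of microglia, read 376.9 in the double knockout pool and 414.0 in the control pool, a difference of -0.14. Cx3cr1, the receptor for neuronal fractalkine, read 340.2 in the double knockout pool and 371.2 in the control pool, a difference of -0.13. Gpr34 and, on its brightest probe set, Csf1r, genes of resting microglia as these 3 are, read higher in the double knockout pool. P2ry12, Tmem119 and Cx3cr1 each rest on 1 probe set above the floor, and only P2ry12 of these lay further from 0 than the pooled SD between probe sets.

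**Figure D2:**
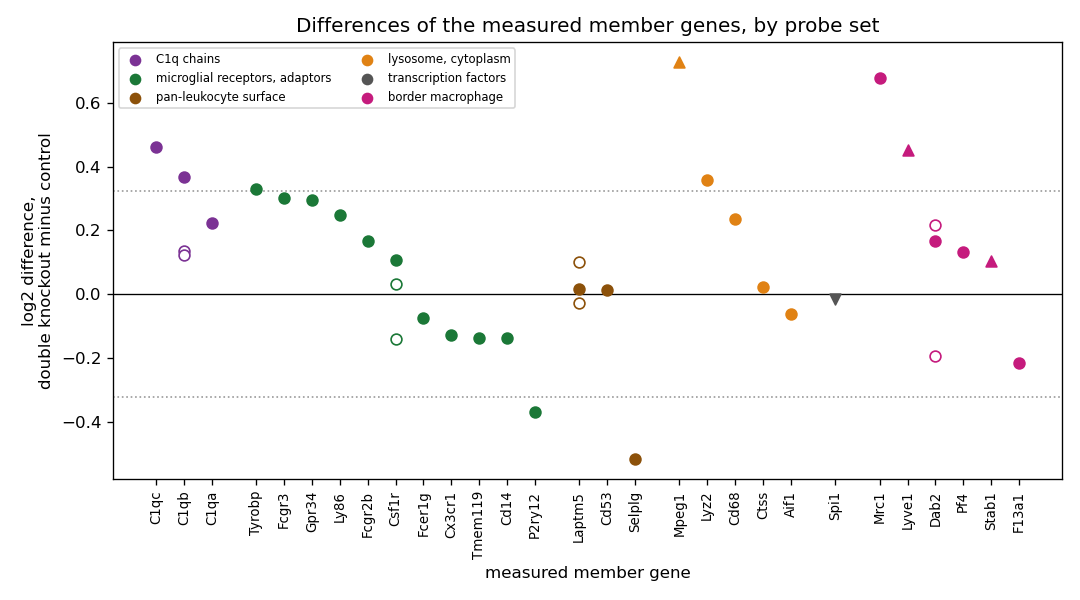
Log2 difference (double knockout minus control) of the 29 measured members, grouped and coloured by role, with filled symbols for the brightest probe set, open circles for the gene's other measured probe sets, triangles for lower bounds and dotted lines at 0.32 log2 in either direction. The C1q chains lie above 0, the microglial receptors spread from 0.33 for Tyrobp to -0.37 for P2ry12, and Selplg is the lowest at -0.52.

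Membrane proteins shared by leukocytes were measured in 3 of 6 cases. Of these members, Itgam (CD11b), Ptprc (CD45) and Cd52 stayed under the floor in both pools, with Ptprc the brightest of these at 151.0 in the double knockout pool and 144.9 in the control pool. Cd53, a tetraspanin, read 373.6 in the double knockout pool and 369.0 in the control pool, and Laptm5, a lysosomal membrane protein, read 660.0 in the double knockout pool and 651.2 in the control pool, so these 2 differed by 0.01 and 0.02. Over its 3 probe sets above the floor Laptm5 averaged 0.03 ± 0.07 (SD, 3 probe sets).

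Selplg, the selectin ligand PSGL-1 of leukocytes and microglia, had the lowest difference of all the members. It read 250.4 in the double knockout pool and 357.7 in the control pool, or -0.52 log2 and 1.43-fold lower, and 149 of the measured genes had a lower difference. Selplg lies next to Tmem119 on chromosome 5 in the RefSeq gene table, and both were lower in the double knockout pool. F13a1 and Ly86, another adjoining pair, on chromosome 13, went opposite ways, at -0.22 and 0.25.

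Of the 5 lysosomal, phagocytic and cytoplasmic members, Lyz2 and Cd68 had the clearest higher signals among those measured in both pools. Lyz2, which encodes lysozyme, read 312.9 in the double knockout pool and 243.3 in the control pool, or 0.36 log2 and 1.28-fold. Cd68, a glycoprotein of late endosomes, read 274.6 in the double knockout pool and 232.6 in the control pool, a difference of 0.24. Mpeg1, the pore-forming perforin-2, read 296.5 in the double knockout pool and 51.6 in the control pool, far under the floor, so that it was at least 1.66-fold higher.

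The other 2 members of this class lay close to 0. Ctss, the protease cathepsin S, was bright and alike, at 2071.9 in the double knockout pool and 2035.6 in the control pool, a difference of 0.02. Aif1, the actin-binding protein IBA1 used to stain microglia, read 186.9 in the double knockout pool and 194.8 in the control pool, a difference of -0.06 just above the floor.

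The transcription factors that specify microglia could hardly be measured. Spi1, which encodes PU.1, read 148.7 in the double knockout pool and 180.5 in the control pool, barely above the floor in the control pool alone. Irf8 read 175.0 in the double knockout pool and 135.3 in the control pool on its brighter probe set, under the floor in both, and its other probe set differed the opposite way, at 40.3 in the double knockout pool and 77.5 in the control pool. No direction is given for either gene.

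Mrc1 had the highest difference of the border macrophage genes. Of the 8 members, 4 reached the floor in both pools, 3 of them higher and 1 lower in the double knockout pool. Of all genes at or above the floor in both pools 54.3% were higher, and no trend of the class is read from 4 genes. Of the other members, 2 reached the floor in the double knockout pool alone and 2 in neither. Mrc1, the mannose receptor CD206, read 445.2 in the double knockout pool and 277.3 in the control pool, or 0.68 log2 and 1.60-fold, on its only probe set, whose promoter with 2 PU.1 cores is printed above. Only 18 of the 11636 measured genes had a higher difference. The threshold of 1.5-fold was passed upwards by Mrc1 and, as a bound, by Mpeg1, and by 0.37% of all measured genes. No member passed it downwards, where 0.773% of all measured genes did.

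Lyve1, a hyaluronan receptor of border macrophages and lymphatic vessels, read 244.9 in the double knockout pool and 152.8 in the control pool, at least 1.37-fold higher, while its dimmer probe set read 83.7 in the double knockout pool and 81.7 in the control pool. Stab1, the scavenger receptor stabilin-1, read 192.4 in the double knockout pool and 136.2 in the control pool, at least 1.07-fold higher. Cd163, the receptor that clears haemoglobin, read 81.4 in the double knockout pool and 52.2 in the control pool, and Ms4a7, a membrane protein of macrophages, read 148.6 in the double knockout pool and 133.8 in the control pool, both under the floor. A gene that reached the floor in 1 pool alone had to differ in that pool's favour, so Lyve1, Stab1 and Mpeg1 are not counted as support for a direction.

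The remaining border genes lay on both sides of 0. Pf4, a chemokine of platelets and border macrophages, read 448.3 in the double knockout pool and 408.0 in the control pool, a difference of 0.13. Dab2, an endocytic adaptor, read 1004.1 in the double knockout pool and 891.4 in the control pool on its brightest probe set, and its 3 probe sets above the floor, at 0.17, 0.22 and -0.19, averaged 0.06 ± 0.22 (SD, 3 probe sets). F13a1, the catalytic subunit of coagulation factor XIII, was the lower one, at 232.7 in the double knockout pool and 269.7 in the control pool, a difference of -0.22. Mrc1 lay above the other 3 border genes measured in both pools.

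**Figure D3:**
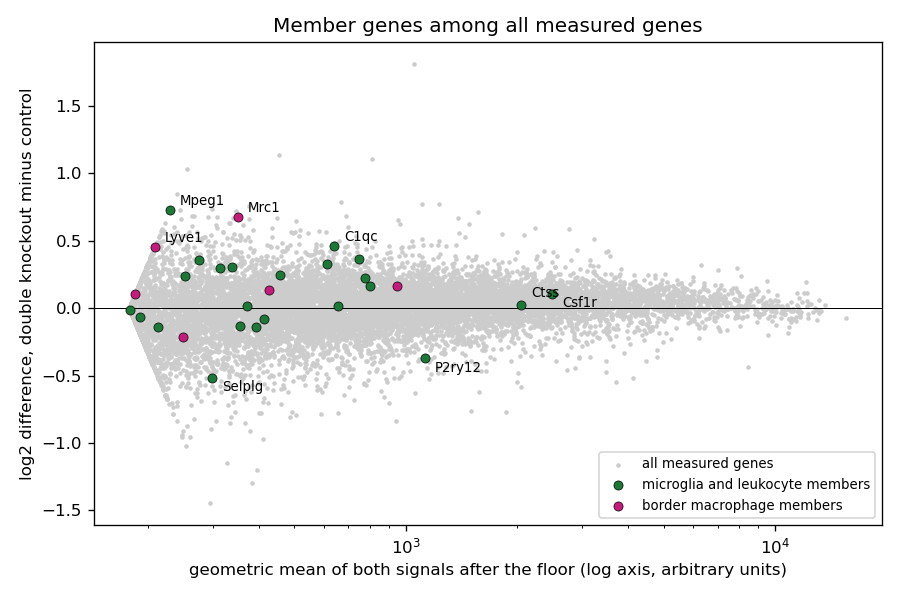
Log2 difference (double knockout minus control) against the geometric mean of both signals (log axis, arbitrary units) for all 11636 measured genes in grey, with the microglia and leukocyte members in green and the border macrophage members in magenta. Mrc1 and Mpeg1 lie at the upper edge of genes of like signal, Csf1r and Ctss near 0 among brighter genes, and P2ry12 and Selplg toward the lower edge.

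Other genes enriched in microglia did not share the direction of the C1q chains. Of 14 measured genes of that list 6 were higher and 8 lower in the double knockout pool, with a median of -0.09 log2, beside 0.01 over all measured genes. Slc2a5, a fructose transporter of microglia, read 181.2 in the double knockout pool and 248.8 in the control pool, or -0.46. Entpd1, the ATP-degrading enzyme CD39, and Sparc were at -0.23 each, but Sparc averaged -0.15 ± 0.12 (SD, 2 probe sets). Sparc read 4853.1 in the double knockout pool and 5676.9 in the control pool, brighter than any member. The part of other cells in its signal was not tested. Itgb5, an integrin, was at -0.28 on its brightest probe set but averaged -0.11 ± 0.23 (SD, 3 probe sets). The purine receptor P2ry13 and the lectin Siglech, named after their values were seen, were both at -0.09, and Adgre1 (F4/80), named likewise, was at 0.20.

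The measured genes listed as signalling below Tyrobp were lower in the double knockout pool although Tyrobp was higher. All 9 measured genes of the TYROBP-SYK list had differences under 0, where 47.1% of all measured genes did, with a median of -0.18. Of these 9, 3 could only be lower. The 6 measured in both pools were all lower, beside 45.7% of all such genes, with a median of -0.19. Because the list was chosen with earlier results of these arrays known, nothing is read from its counts against these shares. Dok3, an adaptor that restrains immune receptors, read 187.7 in the double knockout pool and 265.4 in the control pool, or -0.50. Inpp5d, the inositol phosphatase SHIP1, read 229.1 in the double knockout pool and 316.2 in the control pool, or -0.47. Nckap1l and Vav1, which act on the actin skeleton of blood cells, were at -0.20 and -0.18, Plcg2 at -0.02, and the kinase Syk itself was under the floor in both pools, the last 2 named after their values were seen. The 3 genes that could only be lower reached the floor in the control pool alone.

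Genes of the pathways that keep microglia alive, most of which other cells also make, went both ways. Of 13 measured genes of the CSF1R, TGF-beta and fractalkine list 5 were higher and 8 lower in the double knockout pool, none past 0.32, with a median of -0.04. Il34, the neuronal ligand of CSF1R, read 590.9 in the double knockout pool and 713.9 in the control pool, or -0.28, and Tgfbr2, a TGF-beta receptor, read 658.9 in the double knockout pool and 800.1 in the control pool, also -0.28. Nrros, which holds latent TGF-beta on microglia, was at 0.27 and Smad2 at -0.23. The ligand Csf1, named after its values were seen, was at -0.12 on its brightest probe set and averaged 0.05 ± 0.23 (SD, 2 probe sets).

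Among transcription regulators of these cells 6 of 9 measured genes were higher in the double knockout pool, with a median of 0.08. All 9 reached the floor in both pools, and of all such genes 54.3% were higher. Mef2a, named after its values were seen, counts as higher at 0.12 but averaged -0.13 ± 0.23 (SD, 4 probe sets). Maf was at 0.38 but averaged 0.14 ± 0.18 (SD, 5 probe sets), Fli1 was at 0.26, Sall1 at 0.14 and Irf5 at -0.13. Of genes that activated microglia raise after birth, 8 of 9 measured were higher with a median of 0.09 and none past 0.32. These 9 also reached the floor in both pools, so the share beside them is again 54.3%. Lpl and Igf1, named after their values were seen, count as higher at 0.05 each on their brightest probe sets. Lpl averaged -0.05 ± 0.14 (SD, 2 probe sets) and Igf1 -0.05 ± 0.11 (SD, 4 probe sets). Grn, progranulin, averaged 0.30 ± 0.07 (SD, 3 probe sets), Ctsd, cathepsin D, was at 0.20, Apoe at 0.19 and Ctsb at 0.16. Neurons and astrocytes make these lysosomal and lipid genes as well. The more restricted activation genes Gpnmb, Clec7a, Itgax, Cst7 and Lgals3, named after their values were seen, stayed under the floor in both pools.

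**Figure D4:**
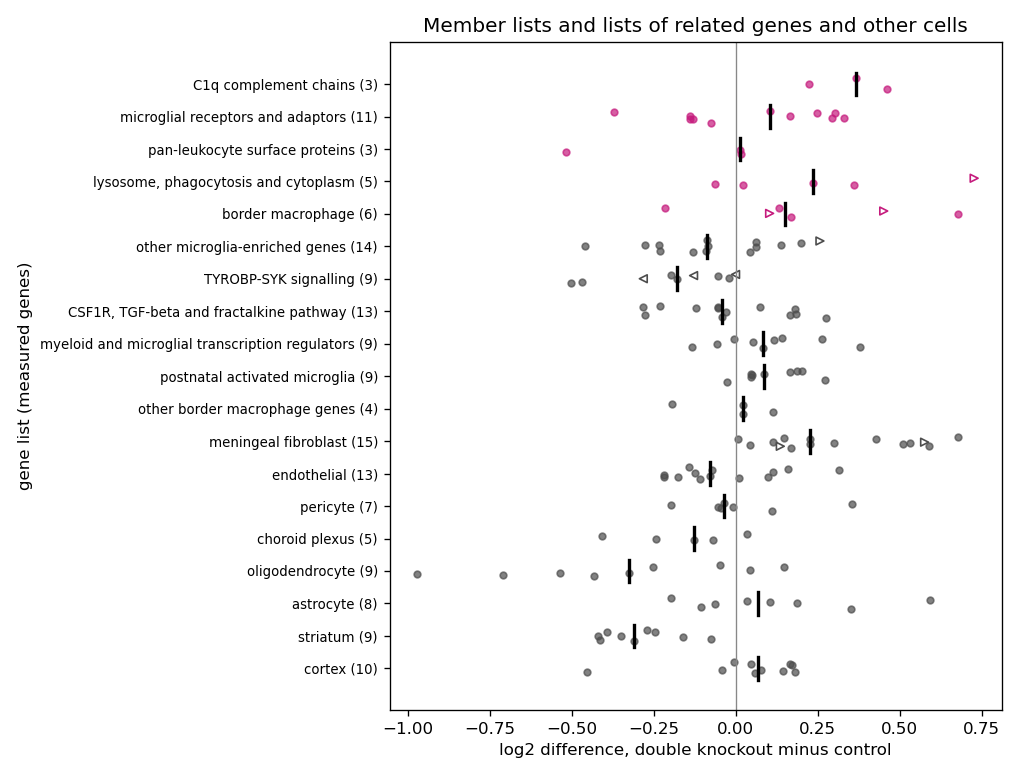
Log2 difference (double knockout minus control) of the measured genes of each list, with points for genes at or above the floor in both pools, open triangles for bounds and black bars at the median, member lists in magenta and other lists in grey, and the number of measured genes in brackets. The C1q chains (median 0.37) and the meningeal genes (0.23) lie to the right, and the TYROBP-SYK, oligodendrocyte and striatal genes to the left.

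Genes of the meninges, where border macrophages live, were higher in the same pool. All 13 genes of the meningeal fibroblast list measured in both pools were above 0, beside 54.3% of all such genes. Of their 19 probe sets at or above the floor in both pools, 16 were higher and 3 lower. The other 2 measured genes reached the floor in the double knockout pool alone and so could only be higher. Because the list was chosen with earlier results of these arrays known, nothing is read from its count against that share. Over all 15 the median was 0.23, and the summed signal was 23241.9 in the double knockout pool and 18754.7 in the control pool. Aldh1a2, the meningeal retinoic acid enzyme, was at 0.68, as Mrc1 was, with Igf2 at 0.59, Islr at 0.53 and Ogn at 0.51, although Ogn averaged 0.27 ± 0.34 (SD, 2 probe sets). Pdgfra, named after its values were seen and also on the oligodendrocyte list, was at 0.15 but averaged -0.02 ± 0.24 (SD, 2 probe sets). Foxd1 and Crabp2, named after their values were seen, were under the floor, and no marker was listed at 0. The part of meningeal tissue in the border macrophage differences was not tested.

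Markers of other cells that share members went both ways. Endothelial genes, which may share Stab1 and Lyve1, numbered 13 measured with a median of -0.08, Tek being at 0.31, both Slco1a4 and Pecam1 at -0.22 and Eng at -0.18, and a summed signal of 6410.8 in the double knockout pool and 6501.4 in the control pool. Of the lymphatic markers, which share Lyve1, 2 of 3 measured were higher in the double knockout pool, with a median of 0.11. Of all measured genes 52.9% were higher. The summed signal of the 3 was 5150.1 in the double knockout pool and 4336.7 in the control pool. Most of it was Reln, at 4233.6 in the double knockout pool and 3455.6 in the control pool. The part of lymphatic vessels in the difference of Lyve1 was not tested. Prox1, named after its values were seen, was under the floor, and Flt4, Pdpn and Reln, the last made by cortical neurons too, were at -0.04, 0.11 and 0.29. The 5 measured choroid plexus genes had -0.13 as their median, Kcnj13 being lowest at -0.41, and the 7 pericyte genes -0.04, Vtn being highest at 0.35. Striatal genes, all 9 under 0, had a median of -0.31 and a summed signal of 9966.4 in the double knockout pool and 11848.3 in the control pool, and the part of tissue composition in the microglial differences was not tested.

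Blood cells left little signal in either pool. Of 10 monocyte and neutrophil genes with a probe set, 9 were under the floor in both pools, S100a8, S100a9 and Ccr2 among them, and Plac8 reached it in the control pool alone. Of 10 lymphocyte genes 8 were under the floor, with Ms4a1 at -0.30 and Cd8a at 0.07, and of 7 mast cell genes 5 were, with Kit, which neurons also make, at -0.26. All 5 red blood cell genes were under the floor. Lyz2 is shared by monocytes and neutrophils with macrophages, and the part of these blood cells in its difference was not tested.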

How the data were processed

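RNA of 3 mice per group was pooled and 1 array per pool was hybridised, per the labels' protocols. The authors deposited MAS5 intensity signals on a linear scale, per the submitters' processing notes, with settings not given in the sources used here. The 2% trimmed mean was 500.002 on both arrays. With 1 array per group, no p-value was computed, and the number of arrays limits the precision.

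Of 45101 probe sets, 64 control probe sets were set aside, and those naming 1 gene were used, named through platform annotation and a RefSeq gene table of GRCm38.p6 (99.4% of identifiers matched). Signals were centred by 0.0037 log2 on probe sets bright in both pools and floored at 178.6, the 50th percentile. A gene's value came from its brightest measured probe set by mean log2 signal. All differences are double knockout minus control. Printed signals are those deposited. The procedure was tested on simulated data.

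The members and lists were chosen with earlier results of these data known. The genes named are all members, Mrtfa, Mrtfb and Srf, and genes from the up to 4 per list with the largest difference measured in both pools. Other genes, among them those named because they lay under the floor, were chosen after their values were seen. Python 3.11.15, numpy 2.4.6, pandas 2.3.3, statsmodels 0.14.6 and matplotlib 3.10.9 were used. Alternatives varied the centring, the floor and the choice of probe sets.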

Additional observations from a re-analysis of the deposited data

How the results depend on the processing

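Of the 29 measured members, 25 kept their direction under every alternative that gave them a value. The exceptions were Aif1, Csf1r, Ctss and Laptm5, and no member past 0.32 log2 reversed. This count is no independent check, because every alternative reused the signals of the same arrays. For the 24 members with only 1 probe set, the choice of probe sets could not change the direction. The 25 also include Spi1, Mpeg1, Lyve1 and Stab1. These reached the main floor in 1 pool alone, so their direction there was fixed. The median of the microglia and leukocyte members, 0.11, was 0.029 with the mean over probe sets and 0.22 without suffixed probe sets, and also 0.22 without members that other leukocytes express. The median of the border macrophage members, 0.15, became 0.36 with a 25th percentile floor and 0.33 with no floor. With a 75th percentile floor 6 of 9 microglia and leukocyte members and 1 of 1 border member were higher. Counting only members at or above the floor in both pools, an alternative chosen after seeing the data, 3 of 4 border members were higher. Of all genes counted that way 54.3% were higher. The 7 members past 0.32 upwards became 11 with a 25th percentile floor, 2 at the 75th and 4 with a pseudocount equal to the floor, and the 2 downwards became 1 at the 75th percentile, with the pseudocount and without suffixed probe sets. Over all measured genes the share past 0.32 upwards ran from 1.36% to 8.53% across the alternatives. No paired analysis was possible because each group has 1 array. Members near the floor, such as Cd14, Aif1 and Spi1, are limited by their low signal.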

Other observations

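Most inflammatory genes stayed under the floor in both pools. Of 16 genes of an immune response list with a probe set, 13 were under the floor in both pools, among them Tnf, Il1b, Il6, Ccl2 and Nos2, the last gene reading 7.0 in the double knockout pool and 13.9 in the control pool. The 3 measured genes were the inhibitor Nfkbia at 0.08, the chemokine Ccl4 at 0.08 and Tlr2, which reached the floor in the control pool alone. Further genes of border macrophages were mostly dim, with 8 of 12 under the floor. The 4 measured ones were Colec12 at 0.11, Ednrb and Folr2 at 0.02 each and Cd209f at -0.20, so none came near the difference of 0.68 of Mrc1. Gfap, the astrocyte filament gene, was at 0.59 with a mean of 0.58 ± 0.01 (SD, 2 probe sets), and the astrocyte list had a median of 0.07 over 8 genes. Oligodendrocyte genes had a median of -0.32 over 9 genes, led by Mobp at -0.97.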
